A study of Homo sapiens with 8 samples.

Results

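The genes described here build and run the machinery that divides a cell: the kinesins (symbols beginning with KIF), the centromere proteins (CENP) and 23 further genes of mitosis, among them TOP2A, PLK1, NDC80 and MKI67. Members were taken by gene symbol from the platform annotation. A transcript cluster, the set of probes that the array reads as 1 transcript, was a member when its only symbol was a KIF or CENP symbol or 1 of 28 listed mitotic genes. This gave 90 clusters of 83 genes, 44 of them KIF and 16 CENP, of 16098 clusters with exactly 1 symbol and 53617 in the table. The listed NUF2, TPX2, ANLN, ASPM and DLGAP5 had no such cluster and were not analysed here, and CENPE, CENPF and CENPB were not analysed here either. KIFBP and KIFAP3 entered by their symbols, although the first binds kinesins and the second is a non-motor kinesin subunit.

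The study asked what changes in glioblastoma cells when the histone deacetylase HDAC2 is depleted. The cells were A172, an established human glioblastoma line, in which doxycycline induces either an shRNA that targets HDAC2 (shHDAC2) or a control hairpin (shControl), delivered by lentivirus and kept as a stable line under puromycin selection, with the number of clones behind each line not given in the sources used here. Each was grown without doxycycline (DOX(-)) or with doxycycline for 2 days (DOX(+)), which makes 4 groups of 2 biological replicates and 8 Affymetrix Human Gene 2.0 ST arrays. All groups share the A172 background, an integrated inducible vector and puromycin selection. In the 2 samples each of shControl DOX(+) and shHDAC2 DOX(-), the source field of the labels gives the opposite construct, and here titles and the treatment entry decided the group. Values are log2 signals, on which a difference of 1 is a doubling. Signals of different probes cannot be set against each other.

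HDAC2 (cluster 17022854) had log2 signals of 6.42 and 6.30 in shControl DOX(-), 6.14 and 6.15 in shControl DOX(+), 5.69 and 5.80 in shHDAC2 DOX(-) and 4.95 and 5.34 in shHDAC2 DOX(+). It was thus lowest where the shRNA was induced, 2.0-fold below shControl on doxycycline (adjusted p = 0.00858), and already 1.53-fold below shControl without it (adjusted p = 0.0101). Its difference in doxycycline response between the cell lines did not pass (-0.38, adjusted p = 0.243). A second HDAC2 cluster (17011843) with a mean signal of 2.35 did not pass on doxycycline (-0.02, adjusted p = 0.972). Adjusted p throughout is that of limma's moderated test with Benjamini-Hochberg adjustment over the 16098 clusters, and a member passed the test when it was under 0.05. Both arrays of shHDAC2 DOX(-) cells lay away from the rest, with correlations to them of 0.95 to 0.954 across all clusters, against 0.982 to 0.991 between groups among the other 6. The comparison on doxycycline uses those 2 arrays only in the shared estimate of the spread. It is given for the whole set and for many, but not all, of the genes described by comparisons with shHDAC2 DOX(-). As a rough check of the glioma label, which depends on each probe as well as on the RNA, NES, VIM, CD44 and EGFR had mean signals above the median of the tested clusters (4.72), while GFAP, SOX2, OLIG2 and S100B did not, nor did EPCAM, PECAM1 and ALB of other cell types. These markers moved with the groups too. Without doxycycline NES was lower in shHDAC2 cells (-2.29, adjusted p = 4.24e-06) and EGFR was lower in them both there (-0.84, adjusted p = 0.000460) and on doxycycline (-0.50, adjusted p = 0.0457). Within shHDAC2 cells the 3 VIM clusters fell by 0.94 to 1.41 and CD44 by 0.69, while NES, SOX2 and EGFR rose, and the part of such shifts in the members' values was not tested.

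Mitosis rests on a few assemblies that act in order. Cyclin-dependent and Aurora kinases and PLK1 drive entry, centromere proteins mark the chromosome and seat the kinetochore, mitotic kinesins shape the spindle and move chromosomes, and the midzone proteins complete the cut between the daughter cells. Many of these transcripts are made mainly late in the cell cycle, so their level in a culture follows both the share of dividing cells and the RNA made in each cell, and in bulk RNA fewer cells of a kind and less RNA per cell cannot be told apart. Other kinesins carry vesicles, organelles and cilium components along microtubules at all times. High expression of the mitotic group is a known mark of proliferating glioma cells.

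On doxycycline, 12 members were lower in shHDAC2 than in shControl cells, and the largest decreases were those of the centromere protein gene CENPQ, TOP2A, the transport kinesin gene KIF3B, the mitotic kinesin gene KIF15 and the kinetochore gene NDC80. Of the 56 clusters outside the transport and other kinesins 10 passed, and of the 34 transport and other kinesins 2, while 0 of 9 kinases, cyclins and their partners, 0 of 3 spindle assembly genes and 0 of 3 midzone genes did. Of all 90 member clusters, 12 were lower and 0 were higher at an adjusted p under 0.05, where 2.89% of all clusters were lower and 0.770% were higher. Without adjustment, 40 members had a p under 0.05, as did 2864 of all 16098 clusters. The median log2 difference of the members was -0.25, against -0.01 over all clusters and -0.04 over clusters above the median signal, and 81 of 90 members (90%) lay below 0, against 51.5% of all clusters. In 59 members both shHDAC2 DOX(+) arrays lay below all 4 shControl arrays, and in 3 (CENPT, KIF9 and a dim KIFC1 cluster) both lay above. Over all clusters these shares were 17.8% and 12.5%. The 59 were spread over the roles, with 14 of 16 centromere proteins, 6 of 6 kinetochore and checkpoint genes, 7 of 9 kinases, cyclins and their partners, 10 of 17 clusters of mitotic kinesins and 15 of 34 of transport and other kinesins.

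**Figure D1:**
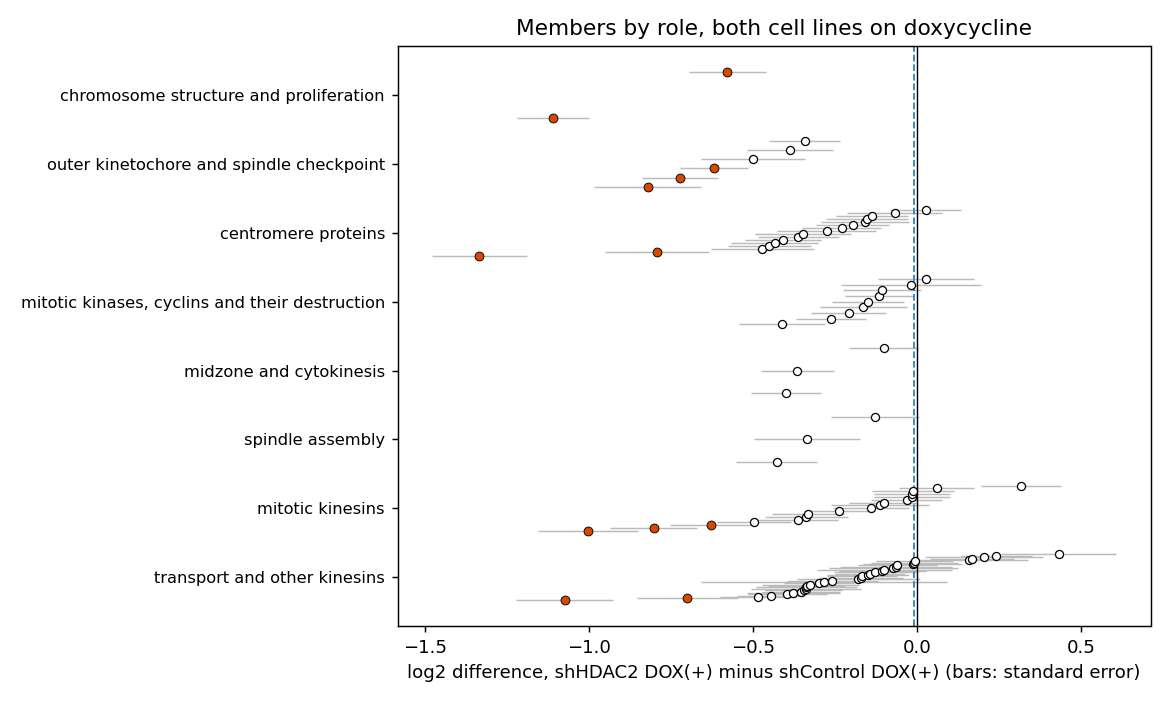
Log2 difference of each of the 90 member clusters (shHDAC2 DOX(+) minus shControl DOX(+)), by role, with its standard error. Filled points passed the test (12, all lower), open points did not, and the dashed line is the median over all clusters (-0.01). Most members of every role lie left of 0.

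TOP2A, the topoisomerase that untangles sister chromatids, had log2 signals of 9.54 and 9.51 in shControl DOX(-), 9.49 and 9.50 in shControl DOX(+), 8.95 and 9.01 in shHDAC2 DOX(-) and 8.30 and 8.48 in shHDAC2 DOX(+). The groups formed steps without overlap, with the 4 shControl arrays together at the top and the induced cells at the bottom. On doxycycline TOP2A was 2.16-fold lower in shHDAC2 cells (log2 difference -1.11 ± 0.11 SE, adjusted p = 0.00190). Without it the difference was already -0.54 (adjusted p = 0.00524).

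MKI67, whose protein Ki-67 coats mitotic chromosomes and is the common stain for proliferation, read 8.85 and 8.82, then 8.73 and 8.76, in shControl DOX(-) and DOX(+). In shHDAC2 cells it read 8.68 and 8.80 without doxycycline and 8.06 and 8.28 with it. Here only the induced cells stood below the rest, at -0.58 ± 0.12 SE against shControl DOX(+) (adjusted p = 0.0320).

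The promoters of TOP2A and of 5 other members are shown because the data move these genes apart, and because many mitotic promoters share a pair of short elements. One is the cell cycle genes homology region (CHR, searched as TTTGAA and TTTAAA), bound by the DREAM and MuvB complexes that silence such genes in resting cells and switch them on late in the cycle. The other is the CCAAT box, bound by the factor NF-Y. Each line gives the 250 bases before the annotated start from RefSeq (GRCh38.p14), 5′ to 3′ along the gene, with matches to these letters on either strand in capitals.
TOP2A (chr17:40417897-40418146, minus strand): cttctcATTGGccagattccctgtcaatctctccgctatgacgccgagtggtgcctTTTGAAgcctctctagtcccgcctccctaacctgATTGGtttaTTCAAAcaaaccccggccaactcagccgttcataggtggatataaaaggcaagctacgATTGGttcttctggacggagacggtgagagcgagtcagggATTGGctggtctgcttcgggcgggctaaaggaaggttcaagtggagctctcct
KIF23 (chr15:69414099-69414348, plus strand): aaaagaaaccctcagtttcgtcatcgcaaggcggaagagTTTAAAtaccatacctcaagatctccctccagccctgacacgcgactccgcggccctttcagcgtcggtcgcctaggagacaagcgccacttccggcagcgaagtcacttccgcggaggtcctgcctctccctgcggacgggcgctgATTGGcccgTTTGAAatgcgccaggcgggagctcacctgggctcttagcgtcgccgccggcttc
PLK1 (chr16:23678639-23678888, plus strand): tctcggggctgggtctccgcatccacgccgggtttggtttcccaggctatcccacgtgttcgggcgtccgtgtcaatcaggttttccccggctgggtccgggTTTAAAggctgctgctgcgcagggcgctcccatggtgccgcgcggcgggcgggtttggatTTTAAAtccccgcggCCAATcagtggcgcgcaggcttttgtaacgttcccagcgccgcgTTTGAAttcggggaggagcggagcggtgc
KIF15 (chr3:44761544-44761793, plus strand): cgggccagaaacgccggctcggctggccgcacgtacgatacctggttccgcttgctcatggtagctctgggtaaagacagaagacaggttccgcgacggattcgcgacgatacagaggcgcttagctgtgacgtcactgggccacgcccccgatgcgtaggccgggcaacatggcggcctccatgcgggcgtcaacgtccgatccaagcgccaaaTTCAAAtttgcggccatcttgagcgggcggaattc
CENPQ (chr6:49463120-49463369, plus strand): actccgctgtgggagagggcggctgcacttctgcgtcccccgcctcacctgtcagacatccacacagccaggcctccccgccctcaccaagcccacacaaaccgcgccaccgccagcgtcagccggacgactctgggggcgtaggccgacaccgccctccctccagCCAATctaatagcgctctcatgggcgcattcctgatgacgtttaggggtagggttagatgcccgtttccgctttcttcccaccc
CENPV (chr17:16353470-16353719, minus strand): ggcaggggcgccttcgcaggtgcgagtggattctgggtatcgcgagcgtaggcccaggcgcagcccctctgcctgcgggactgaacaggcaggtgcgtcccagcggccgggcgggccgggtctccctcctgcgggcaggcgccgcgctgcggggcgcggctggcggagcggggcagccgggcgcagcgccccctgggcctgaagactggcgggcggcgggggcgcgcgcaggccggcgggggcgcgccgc

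TOP2A has 4 CCAAT boxes, all as ATTGG, and 2 CHR matches. In KIF23 an ATTGG at -64 and a TTTGAA at -55 lie beside each other, and PLK1 has a CCAAT at -73 and a TTTGAA at -29 (first letter of the match, counted from the start site). KIF15 has a single CHR match at -35, CENPQ a single CCAAT at -84, and CENPV neither. Promoters were found for 70 of the 83 member genes. Of these, 48.6% held CHR letters and 62.9% CCAAT letters within the 250 bases before and 50 after the start, against 18.7% and 36.0% of 10749 genes with a tested cluster (24.3% and 35.7% of all 27305 promoters in the table). A match of 6 letters is a description of the sequence and not a bound site.

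The split by role was wide. Mitotic kinesins held CHR letters in 12 of 14 promoters and kinases, cyclins and their partners in 6 of 8, whereas transport and other kinesins held them in 2 of 22 and centromere proteins in 4 of 13. CCAAT letters were present in 11 of 14, 8 of 8, 7 of 22 and 8 of 13 promoters of the same lists. Among the 12 genes that were lower on doxycycline, 7 held CHR letters (58.3%) and 8 held CCAAT letters (66.7%). Of all members with a promoter 48.6% and 62.9% held them, and of those outside the transport and other kinesins 66.7% and 77.1%. KIF3B, CENPI, KIF5C, CENPQ and BUB1 were lower and held no CHR letters, while PLK1, CCNB1, CCNB2 and CDK1 held both elements and did not pass the test on doxycycline.

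**Figure D2:**
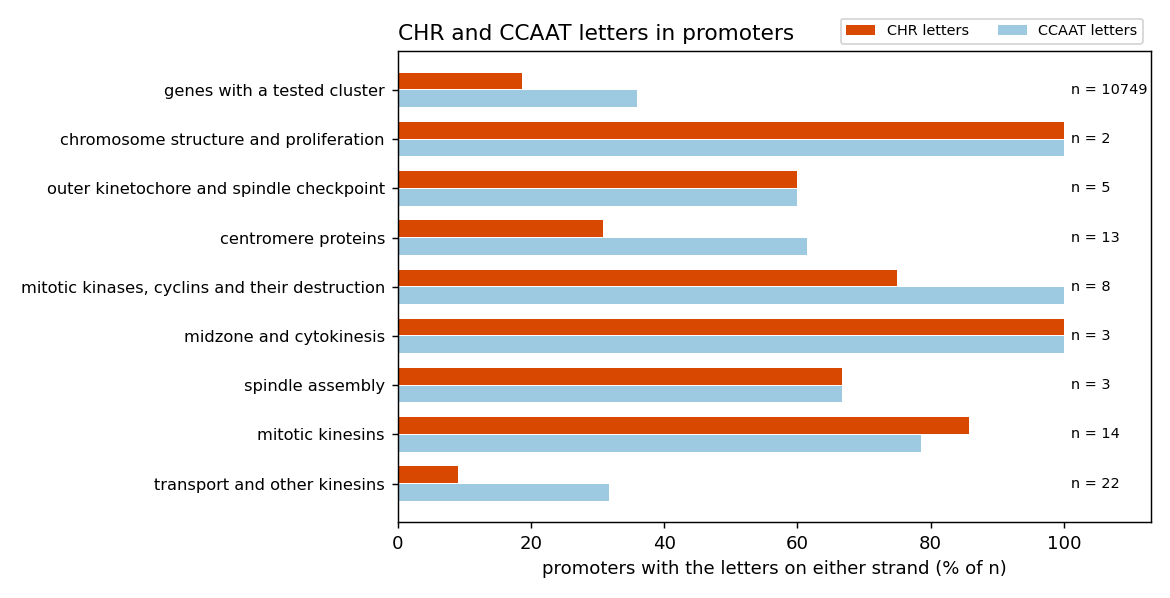
Share of promoters (250 bases before to 50 after the start, % of n) that hold CHR letters (TTTGAA or TTTAAA, dark bars) or CCAAT letters (light bars) on either strand, by role and for all 10749 genes with a tested cluster. CHR letters range from 9.1% of transport and other kinesins to 85.7% of mitotic kinesins, with 100% in lists of 2 and 3 genes.

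Among the mitotic kinesins (17 clusters, 14 genes), 3 were lower on doxycycline and 0 higher, with a median difference of -0.14. KIF15, which helps keep the spindle bipolar, read 6.06 and 6.23 in shControl DOX(-), 5.92 and 6.19 in shControl DOX(+), 5.93 and 5.97 in shHDAC2 DOX(-), and 4.87 and 5.24 in shHDAC2 DOX(+). Only the induced cells were low, 2.0-fold below shControl on doxycycline (log2 difference -1.0 ± 0.15 SE, adjusted p = 0.0109). KIF20B, a kinesin of cytokinesis, had 7.37 and 7.43 in shControl DOX(+) against 6.43 and 6.75 in shHDAC2 DOX(+), with 7.17 and 7.34 in shHDAC2 DOX(-), and its difference was -0.80 (adjusted p = 0.0150).

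KIF23, the motor of the centralspindlin complex that bundles midzone microtubules, read 8.89 and 8.84 in shControl DOX(-) and 8.57 and 8.75 in shControl DOX(+). It read 8.43 and 8.55 in shHDAC2 DOX(-) and 7.93 and 8.13 in shHDAC2 DOX(+), the lowest of the 4 groups and without overlap with any other. The difference on doxycycline was -0.63 ± 0.12 SE, a 1.55-fold decrease (adjusted p = 0.0290). The other mitotic kinesins lay between -0.50 (KIF11, the motor that pushes spindle poles apart) and 0.32 (the dim KIFC1 cluster) and did not pass. KIF20A, a kinesin of the midzone, had a difference of -0.33. KIFC1 has 4 clusters, of which 2 hold identical values, and KIF4A and KIF4B are near-identical copies whose signals may mix.

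The outer kinetochore and checkpoint genes had a median difference of -0.56 on doxycycline, with all 6 below 0 and 3 lower in the test. NDC80, the kinetochore's microtubule coupler, read 7.07 and 6.88 in shControl DOX(+) and 5.99 and 6.32 in shHDAC2 DOX(+), against 7.23 and 6.97 in shControl DOX(-) and 6.80 and 7.10 in shHDAC2 DOX(-). Induced cells alone were low, 1.77-fold below shControl on doxycycline (adjusted p = 0.0302). SGO2, a shugoshin that protects centromeric cohesin, followed the same order at -0.72 (5.12 and 5.25 against 4.37 and 4.55, adjusted p = 0.0130).

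BUB1, a checkpoint kinase, stood in another order, with 8.35 and 8.39 in shControl DOX(+), 7.74 and 7.77 in shHDAC2 DOX(+), and nearly as low values of 7.89 and 7.90 in shHDAC2 DOX(-). Its difference from shControl was -0.62 on doxycycline (adjusted p = 0.0156) and -0.51 without it (adjusted p = 0.00513). TTK, the kinase at the head of the checkpoint, differed by -0.39 on doxycycline and did not pass, but was lower without it at -0.66 (adjusted p = 0.00445). SGO1 and BUB1B had differences of -0.50 and -0.34 on doxycycline and did not pass.

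Of the 16 centromere proteins, 2 were lower on doxycycline and the median difference was -0.31. Most belong to the constitutive network that sits on centromeric chromatin and carries the kinetochore. CENPQ, from its O, P, Q and U subcomplex, showed the largest decrease of any member, at 4.92 and 4.99 in shControl DOX(+) and 3.70 and 3.55 in shHDAC2 DOX(+). In shControl DOX(-) it read 5.34 and 4.99, and in shHDAC2 DOX(-) 5.66 and 5.47, so the uninduced shHDAC2 cells were the highest and the induced ones the lowest. The difference on doxycycline was -1.33 ± 0.14 SE (adjusted p = 0.00266). The induced values lay close to the median of all rows of the table (3.66), so no fold is given against them.

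Its partners CENPO, CENPP and CENPU had smaller differences of -0.20, -0.43 and -0.35 and did not pass. In the H, I, K and M subcomplex, CENPI read 6.49 and 6.61 in shControl DOX(+) and 5.52 and 6.0 in shHDAC2 DOX(+), a difference of -0.79 ± 0.16 SE (adjusted p = 0.0306). CENPH, CENPK and CENPM had -0.41, -0.36 and -0.45 and did not pass. CENPA, the histone H3 variant that defines the centromere, had -0.14, and CENPN, which reads CENPA nucleosomes, had -0.07.

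**Figure D3:**
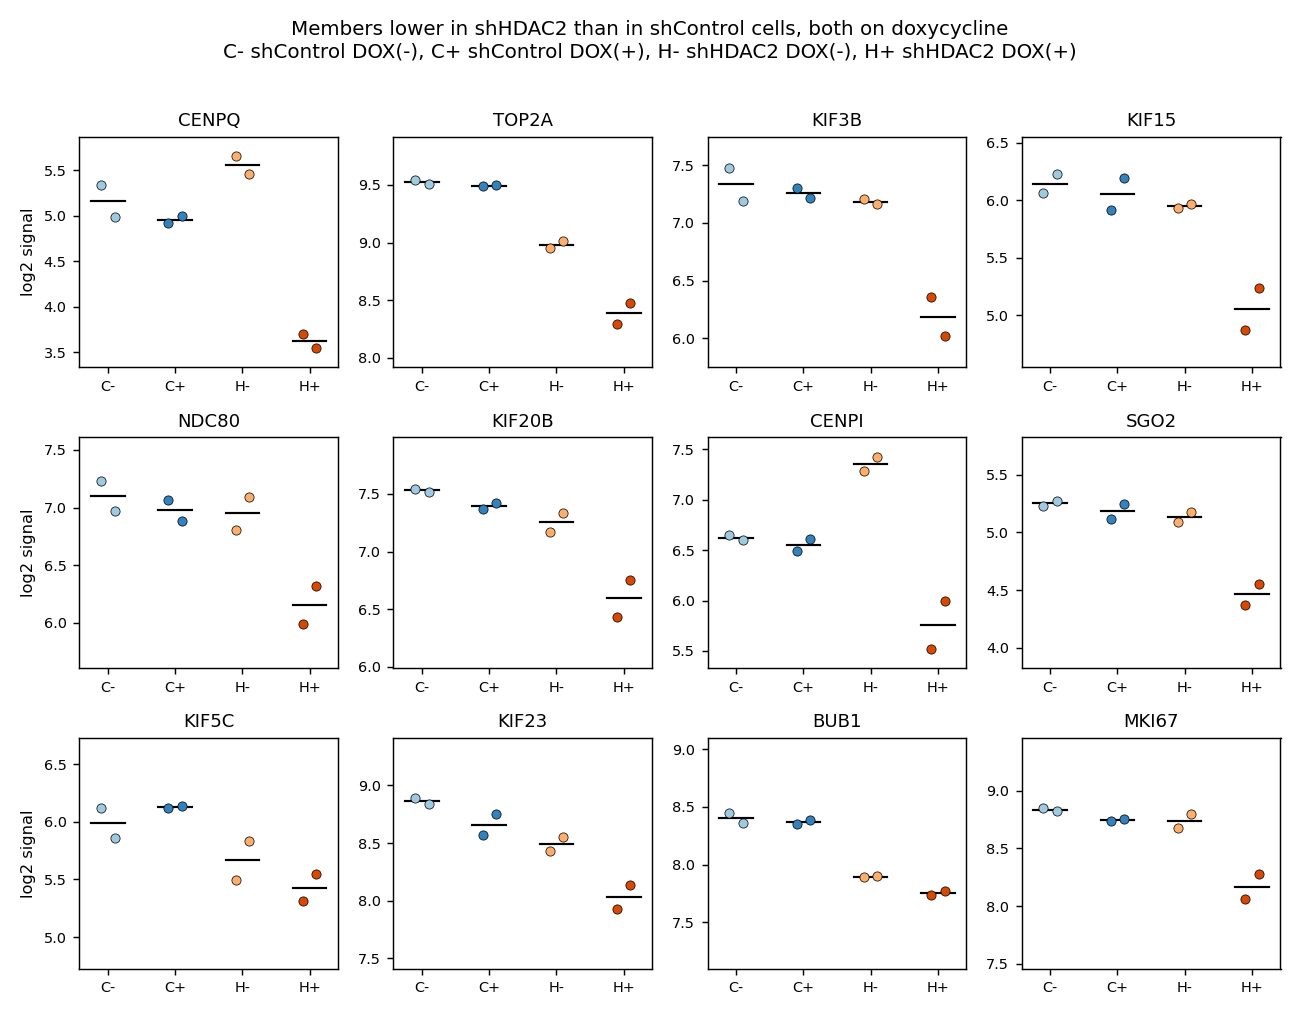
Log2 signal on each array (points, 2 per group; bars are group means) of the 12 members lower in shHDAC2 than in shControl cells on doxycycline, each panel on its own axis. In every panel both shHDAC2 DOX(+) points lie below all 4 shControl points, while the shHDAC2 DOX(-) points lie from well above shControl (CENPI) to nearly level with shHDAC2 DOX(+) (BUB1).

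The kinases, cyclins and their partners that drive entry and exit had 0 of 9 members passing on doxycycline, with a median of -0.15. The largest decrease among them was that of CDK1, the kinase of mitotic entry, with 7.22 and 7.23 in shControl DOX(+) and 6.67 and 6.96 in shHDAC2 DOX(+), a difference of -0.41 that did not pass. CDC20, the activator of the anaphase-promoting complex, had -0.26, CCNA2 had -0.15 and PLK1 had -0.11. In the spindle assembly genes NUSAP1, HMMR and CKAP2 the differences were -0.34, -0.43 and -0.13, and in the midzone genes CEP55, ECT2 and PRC1 they were -0.40, -0.36 and -0.10, with 0 of 6 passing.

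Transport and other kinesins (34 clusters, 30 genes) had a median difference of -0.17 on doxycycline with 2 lower. KIF3B, a motor subunit of the kinesin-2 that builds cilia and carries cargo, read 7.30 and 7.22 in shControl DOX(+) and 6.35 and 6.02 in shHDAC2 DOX(+), with 7.48 and 7.19 in shControl DOX(-) and 7.21 and 7.16 in shHDAC2 DOX(-). Only the induced cells were low, by 2.10-fold (log2 difference -1.07 ± 0.15 SE, adjusted p = 0.00791). KIF5C, a heavy chain of the cargo motor kinesin-1, had 6.12 and 6.14 against 5.31 and 5.55, a difference of -0.70 (adjusted p = 0.0428).

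Of the 12 genes, TOP2A and CENPQ passed the test in each of the 8 fits that left out 1 array, and the other 10 in 2 to 6 of them. Without shControl DOX(+) replicate 2 the members that passed fell to 2, without shControl DOX(+) replicate 1 to 3 and without shHDAC2 DOX(+) replicate 1 to 3, and with every row of the table in the fit only TOP2A (adjusted p = 0.0184) and CENPQ (adjusted p = 0.0251) passed. Against all 4 shControl arrays 26 members were lower and 0 were higher (4.70% and 1.25% of all clusters), and without both shHDAC2 DOX(-) arrays in the fit the count was 12 again. The methods' t-test after Benjamini-Hochberg adjustment left 0 of the 12. Shares of all clusters are not given here for the fits with fewer arrays or with every row.

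Within the shControl cells, doxycycline changed 0 members at an adjusted p under 0.05 (lowest 0.811), and 0% of all clusters passed by limma. The methods' t-test also gave 0 members here, but it gave 0 in each of the 4 comparisons it was run on and so sets none apart. At an unadjusted p under 0.05 there were 3 members and 868 clusters. The members nonetheless leaned down, with a median of -0.08 and 71 of 90 below 0 (78.9%, against 50.8% of all clusters). This control series shares the shControl DOX(+) arrays with the comparison above, and its lean was smaller than the -0.25 there.

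Within shHDAC2 cells, 30 members were lower and 9 higher with doxycycline than without it, against 15.6% and 15.0% of all clusters. Lower were 8 of 16 centromere proteins, 6 of 9 kinases, cyclins and their partners, 5 of 17 clusters of mitotic kinesins, 3 of 6 kinetochore genes and both TOP2A and MKI67. Of the 9 that rose, 7 were transport and other kinesins, beside CENPV and KIF14. The start of this comparison is the pair of shHDAC2 DOX(-) arrays that stood apart, and without doxycycline 7 members were already higher and 22 lower in shHDAC2 than in shControl cells (13.7% and 16.3% of all clusters). Many of the largest responses therefore begin from a level unlike that of the shControl cells, and both comparisons share those 2 arrays.

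PLK1, the Polo-like kinase of mitotic entry, was among the 7 that started high. It read 9.11 and 9.09 in shControl DOX(-), 8.93 and 8.91 in shControl DOX(+), 10.04 and 10.11 in shHDAC2 DOX(-) and 8.75 and 8.86 in shHDAC2 DOX(+). The uninduced shHDAC2 arrays were alone at the top, 1.97-fold above shControl (adjusted p = 0.000138). The shHDAC2 DOX(+) arrays lay 2.41-fold below them (adjusted p = 2.69e-05), at a level close to shControl.

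CENPX, a histone-fold protein shared by the kinetochore and DNA repair, had the same order, with 8.06 and 7.99 in shHDAC2 DOX(-) and 7.21 to 7.60 in the other 6 arrays. KIF2C, which depolymerizes microtubules at the centromere, read 7.70 and 7.51 in shHDAC2 DOX(-), above the 6.97 to 7.23 of the others. CENPI too was higher in shHDAC2 DOX(-), at 7.28 and 7.43, before it fell below shControl on doxycycline, by 3.02-fold from that start (adjusted p = 7.87e-05).

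CENPV, a protein needed for centromere organization and chromosome alignment, showed the opposite. It read 5.83 and 5.81 in shControl DOX(-), 5.93 and 5.92 in shControl DOX(+), only 3.04 and 2.79 in shHDAC2 DOX(-), and 5.75 and 5.64 in shHDAC2 DOX(+). The uninduced shHDAC2 arrays lay at -2.91 from shControl (adjusted p = 3.56e-07), and CENPV was 2.78 higher on doxycycline in shHDAC2 cells (adjusted p = 4.77e-07), at -0.23 from shControl. Both uninduced values lie below the median of all rows of the table (3.66), so they may not be above background and no fold is given against them.

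KIF14, a kinesin of cytokinesis, also started low, at 6.28 and 6.34 in shHDAC2 DOX(-) against 7.24 to 7.71 on the other 6 arrays. With doxycycline it was 1.92-fold higher in shHDAC2 cells (adjusted p = 0.000180), where its difference from shControl on doxycycline was -0.24 and did not pass. It was the only mitotic kinesin that rose there, while KIF15, KIF20B, KIF23, KIF2C and the chromosome congression motor KIF18A fell. CEP55, an abscission protein, read 7.86 and 7.92 in shHDAC2 DOX(-) and 8.24 and 8.18 in shHDAC2 DOX(+), both below the 8.56 to 8.87 of shControl. Without doxycycline KIF11 was 1.74-fold lower in shHDAC2 than in shControl cells (adjusted p = 0.000691). Within shHDAC2 cells it did not pass (0.03).

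**Figure D4:**
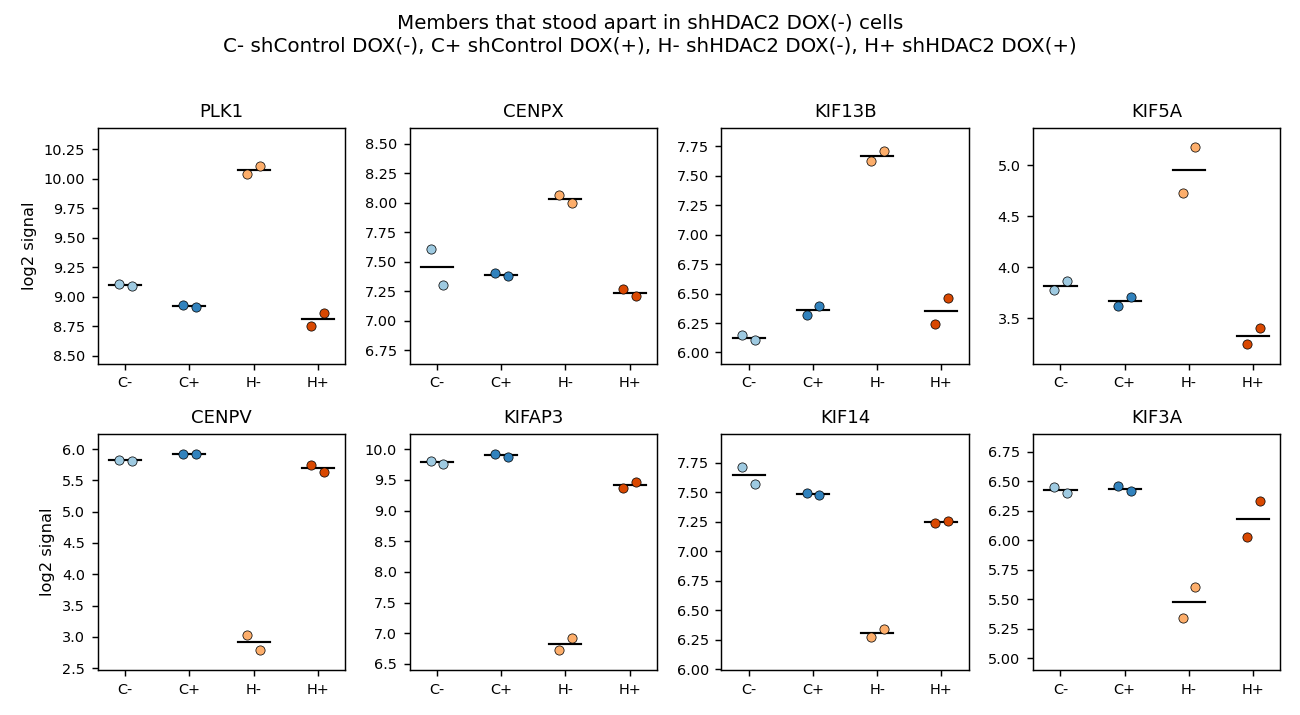
Log2 signal on each array (points, 2 per group; bars are group means) of 8 members whose shHDAC2 DOX(-) arrays lie away from the other 6, above them in the upper row and below them in the lower row. KIFAP3 is its brighter cluster. On doxycycline the shHDAC2 points lie within 0.5 of shControl DOX(+) on the log2 scale in each group mean.

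Within shHDAC2 cells the subunits of kinesin-2 moved in different directions with doxycycline, from the DOX(-) arrays that stood apart. KIFAP3, the adaptor that links the KIF3A and KIF3B motor pair to cargo, read 9.81 and 9.76 in shControl DOX(-), 9.93 and 9.88 in shControl DOX(+), 6.72 and 6.92 in shHDAC2 DOX(-) and 9.37 and 9.47 in shHDAC2 DOX(+). It was 7.80-fold lower in uninduced shHDAC2 cells (adjusted p = 2.65e-07) and rose 6.05-fold on doxycycline (adjusted p = 5.69e-07). A dimmer second KIFAP3 cluster went the same way, with replicate 1 above replicate 2 in every group (2.49 and 2.10 in shHDAC2 DOX(-), 3.64 to 4.83 elsewhere). The shHDAC2 DOX(-) values of this cluster lie below the median of all rows of the table (3.66) and may not be above background.

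KIF3A likewise read 5.34 and 5.61 in shHDAC2 DOX(-), against 6.02 to 6.46 on the other arrays, and rose by 0.70 on doxycycline (adjusted p = 0.00447). KIF3B fell by 1.0 in the same cells (adjusted p = 0.000861), from a start level with shControl. KIF3C, an alternative partner of KIF3A, was lower than in shControl without doxycycline (-0.64, adjusted p = 0.00986) and did not pass within shHDAC2 cells (0.25). With both cell lines on doxycycline, all of these subunits lay below shControl. KIF3B passed there (-1.07), while KIFAP3 (-0.48 and -0.28 in its 2 clusters), KIF3A (-0.26) and KIF3C (-0.32) did not.

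The kinesin-1 heavy chains also differed from each other in the uninduced shHDAC2 cells. KIF5A, the chain best known from neurons, read 3.78 and 3.86 in shControl DOX(-), 3.62 and 3.71 in shControl DOX(+), 4.72 and 5.17 in shHDAC2 DOX(-) and 3.25 and 3.41 in shHDAC2 DOX(+). It reached the median signal of the tested clusters only in the uninduced shHDAC2 cells and fell by 1.62 on the log2 scale on doxycycline (adjusted p = 6.14e-05). Both induced values lie below the median of all rows of the table (3.66), so they may not be above background. Against shControl on doxycycline KIF5A lay at -0.34 and did not pass, on the same side as KIF5B and KIF5C (-0.70). KIF5B, the chain found in most cells, was lower in uninduced shHDAC2 cells at -0.59 (adjusted p = 0.00274). On doxycycline it stood at 9.47 and 9.57 against 9.85 and 9.78 in shControl, a difference of -0.30 that did not pass.

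In the kinesin-3 family, KIF13B read 7.63 and 7.71 in shHDAC2 DOX(-) and 6.10 to 6.46 on every other array, 2.91-fold higher than shControl without doxycycline (adjusted p = 1.67e-05). Its relative KIF13A fell by 0.73 on doxycycline in shHDAC2 cells (adjusted p = 0.00147), and KIF1C and KIF1A rose by 0.58 and 0.54 (adjusted p = 0.00481 and 0.0138) from low uninduced levels. The 6 transport and other kinesins that fell in shHDAC2 cells were KIF5A, KIF13B, KIF3B, KIF13A, KIF7 and KIF21B. The 7 clusters that rose were both of KIFAP3, those of KIF3A, KIF1C, KIF21A and KIF1A, and the KIF27 cluster 17095284 (mean signal 4.11). The other KIF27 clusters, 17086337 and 17086346, were dimmer (mean signals 1.73 and 1.70). They did not pass, at 0.25 and -0.05.

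**Figure D5:**
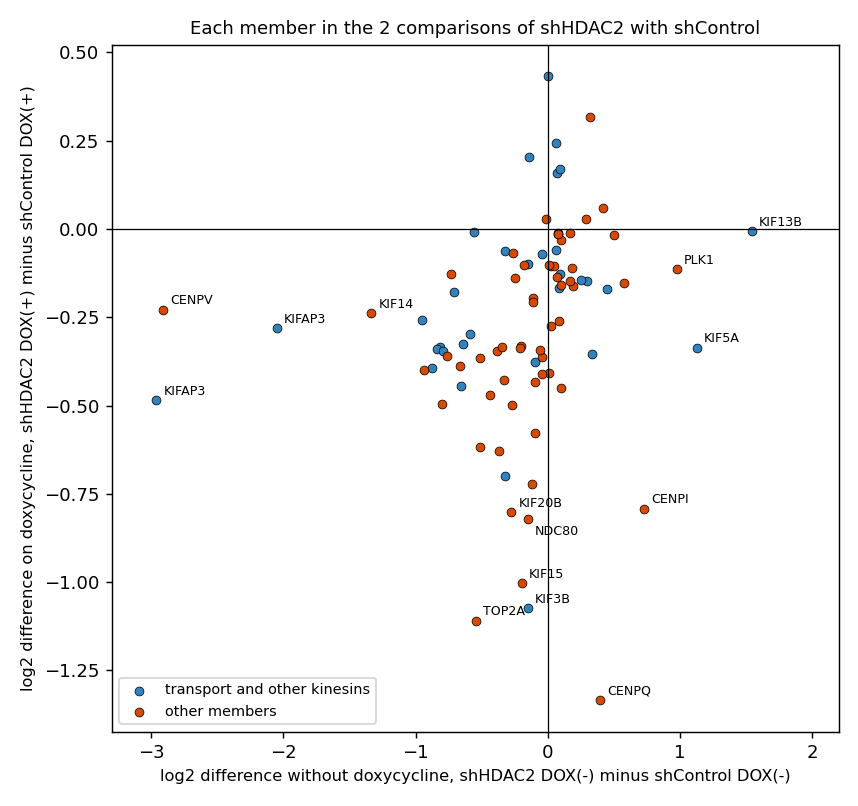
Each of the 90 member clusters by its log2 difference between shHDAC2 and shControl without doxycycline (horizontal axis) and on doxycycline (vertical axis), with transport and other kinesins in blue and other members in orange. The axes share no arrays. The horizontal spread runs from -2.96 (KIFAP3) to 1.54 (KIF13B) and the vertical one from -1.33 (CENPQ) to 0.43.

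The response to doxycycline differed between shHDAC2 and shControl cells for 18 members, 6 with a higher and 12 with a lower response in shHDAC2 cells, against 9.57% and 10.0% of all clusters. The members' counts were thus near the background of this comparison, which also rests on the uninduced shHDAC2 arrays. TOP2A had a difference in response of -0.57 (adjusted p = 0.0340) and CENPQ of -1.73 (adjusted p = 0.000465). For KIF23 (-0.26) and MKI67 (-0.48) the difference in response did not pass. Leaving out 1 array gave 9 to 15 members in place of 18, 9 without shControl DOX(+) replicate 2, 10 without 1 of the other shControl arrays or shHDAC2 DOX(-) replicate 1, and 11 when replicate 1 of shHDAC2 DOX(+) was left out.

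Partners of these genes outside the set, in 7 lists of 91 clusters, were lower in shHDAC2 cells on doxycycline in 13 cases and higher in 1, beside the 2.89% and 0.770% of all clusters. In the kinetochore and checkpoint list 6 of 14 were lower. SKA1, which couples kinetochores to microtubule ends, read 5.73 and 5.97 in shHDAC2 DOX(+) against 6.56 and 6.57 in shControl DOX(+) (-0.72, adjusted p = 0.0190). HJURP, the chaperone that deposits CENPA, was also lower (-0.57, adjusted p = 0.0276), as was SPDL1 (-0.56, adjusted p = 0.0425). Within shHDAC2 cells SKA1 and HJURP fell by 1.54 and 0.78 on doxycycline, while SPDL1 rose by 1.03. The centriole kinase PLK4 was lower at -0.79 (adjusted p = 0.0382). In condensin and cohesin 2 of 13 were lower, and in the list of mitotic entry and centrosome kinases 4 of 16. In the anaphase-promoting complex, the passenger partners and the DREAM and FOXM1 regulators 0 of 18, 0 of 3 and 0 of 16 were. Among the largest changes of the first 4 of these lists within shHDAC2 cells, some fell and some rose with doxycycline. ESPL1 (-0.64), FBXO5 (-0.85), CDCA8 (-1.42), INCENP (-0.55), BIRC5 (-0.38), PLK4 (-1.12), GTSE1 (-1.03) and MELK (-1.03) fell. NIPBL (0.61), SMC3 (0.58), CDC23 (1.00) and CDC16 (0.54) rose. Of the G1 list of cyclins, their kinases and inhibitors, CCNE2 was lower (-0.54, adjusted p = 0.0492).

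Among 16 DREAM and FOXM1 regulators, 7 were lower and 3 higher on doxycycline within shHDAC2 cells, beside 15.6% and 15.0% of all clusters, and 6 did not pass. FOXM1, the transcription factor of the late cell cycle, read 7.48 and 7.45 in shControl DOX(-), 7.38 and 7.53 in shControl DOX(+), 8.11 and 8.16 in shHDAC2 DOX(-) and 7.19 and 7.18 in shHDAC2 DOX(+), so that the uninduced shHDAC2 cells were the highest. Its difference from shControl on doxycycline was -0.27 and did not pass. RBL1, a pocket protein of DREAM, fell by 1.62 within shHDAC2 cells (adjusted p = 1.39e-05) and differed by -0.41 from shControl on doxycycline, which did not pass. E2F8, a repressor of the E2F family, fell by 1.01 within shHDAC2 cells (adjusted p = 0.000216), whereas its close relative E2F7 rose by 0.92 (adjusted p = 0.00116), as did TFDP2 and LIN54 by 0.71 and 0.33. CDK6, a kinase of the G1 phase, was the 1 partner above shControl on doxycycline, at 9.28 and 9.38 against 8.55 and 8.41 (0.85, adjusted p = 0.00736), from 6.90 and 7.04 in shHDAC2 DOX(-).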

How the data were processed

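Total RNA of A172 cells was hybridized to 8 Affymetrix Human Gene 2.0 ST arrays, 2 per group. For extraction the methods name RNeasy and Trizol. The authors ran RMA in Affymetrix Expression Console, which equalizes the arrays' distributions, and the deposited values are log2 signals. A change common to most transcripts is hidden by this step. No version or genome build is stated for it in the sources used here. Clusters were named through the platform annotation, which can be old.

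The model was fitted in limma 3.58.1 (R 4.3.3) to the 16098 clusters with 1 symbol on all 8 arrays, with a mean for each group, moderated variances (4.83 prior and 4 residual degrees of freedom) and Benjamini-Hochberg adjustment, two-sided, with a threshold of 0.05. The steps were tested on simulated data. The number of arrays limits the precision, and the p-values measure only the spread between these arrays. Members of 1 gene share probes or transcripts and are not replicates. The methods name a two-tailed unpaired test for 2 groups, run as an alternative and called the methods' t-test. Other alternatives were the replicate block, leaving out each array, fewer arrays or clusters, every row, other scalings and variance models. The fit without both shHDAC2 DOX(-) arrays was added after the data were seen.

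The members, the role lists and the partner lists were chosen with earlier results of these data known. Named are HDAC2, TOP2A and KIF23, and the 6 members with the largest difference past the threshold in each comparison. Also named are up to 3 members per role list by mean signal, and members against the direction of their list. Partners are up to 3 per list by the difference for doxycycline in shHDAC2 cells, though not all of these in the G1 list. Further members and partners were named after their values were seen, to complete the complexes, to show those against the direction of their list and to name those that passed on doxycycline. Promoters come from RefSeq (GRCh38.p14) and were matched by gene identifier. Of the marker lists, 2 genes had no cluster of 1 symbol and were not analysed here.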

Additional observations from a re-analysis of the deposited data

Results flagged for a closer look

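For 18 member clusters the response to doxycycline differed between shHDAC2 and shControl cells, by the interaction term of the limma fit at an adjusted p under 0.05. The difference, as the log2 change in shHDAC2 cells minus that in shControl cells, was positive for CENPV (2.68), KIFAP3 (2.48 and 1.77 in its 2 clusters), KIF14 (1.10), KIF3A (0.69) and CEP55 (0.54). It was negative for CENPQ (-1.73), KIF13B (-1.55), CENPI (-1.52), KIF5A (-1.46), PLK1 (-1.09), KIF3B (-0.92), KIF15 (-0.81), CENPX (-0.73), KIF13A (-0.69), KIF7 (-0.62), SGO2 (-0.60) and TOP2A (-0.57). All 18 use the shHDAC2 DOX(-) arrays, which stood apart from the other 6, and the part of those arrays in these values was not tested.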

How the results depend on the processing

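No result turned its direction under the alternatives. Of the 39 members that passed for doxycycline in shHDAC2 cells, the 12 on doxycycline and the 29 without it, the methods' t-test after Benjamini-Hochberg left 0 each. The 18 members that differed in response became 8 with every row of the table and 28 with a variance trend and robust moderation. The 12 on doxycycline became 2 with every row, 24 when dimmer clusters than the median were left out, 27 with a variance trend and robust moderation, and 26 against all 4 shControl arrays. Leaving out 1 array gave 29 to 39 members for doxycycline in shHDAC2 cells, 9 to 15 for the difference in response, 2 to 12 on doxycycline and 24 to 31 without it. Doxycycline in shControl cells gave 0 in every setting. The share of all clusters that passed is given only for the main fit and for the one against all 4 shControl arrays. The counts in other settings therefore describe the members alone. The labels give replicates with the same number only that number in common. The correlations of their deviations between groups were all above 0 (0.00669 to 0.214), and what lies behind them was not tested. With the replicate block the counts were 41, 20, 11 and 33. For single members, 600 values kept their side of the threshold, 73 fell short of it and 4 newly passed. For all comparisons the other scalings moved the median of all clusters by less than 0.1.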
